A study of Rattus norvegicus with 44 samples.

Results

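The axon guidance ligands and receptors of rat cortex were followed here through the first days after permanent ischemia. The genes were chosen by symbol, as every semaphorin of classes 3 to 7, plexin, neuropilin, Slit, Robo, ephrin, Eph receptor, netrin, Unc5 receptor and Dcc that the series' normalized table lists. This gave 45 genes, read by 63 probes, out of 9763 genes with a symbol in that table. They comprise 20 ligands (13 semaphorins, 3 ephrins, 3 Slits and 1 netrin) and 25 receptors (10 Eph receptors, 7 plexins, 4 Robo receptors, 3 Unc5 receptors and 1 neuropilin). The table was filtered by the authors, also on variability, so a gene had to vary between arrays to be listed.

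Axon guidance cues steer growing axons by attracting or repelling the growth cone. Secreted semaphorins bind neuropilins, which signal through plexins, while most membrane-bound semaphorins bind plexins directly. Slits repel axons through Robo receptors, netrins attract through Dcc and repel through Unc5 receptors, and ephrins bind Eph receptors on neighbouring cells and can signal in both directions. In adult cortex these proteins remain in neurons, glia and vessels, and several of them are known as inhibitors of axon regrowth after injury.

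Adult Sprague-Dawley rats had a branch of the right middle cerebral artery tied permanently, and per the study's methods both common carotid arteries were also closed for a limited time. The infarct core, the surrounding periinfarct cortex and the contralateral cortex were taken at 24 h or at 3 d. Sham-operated rats underwent the surgery without occlusion, and their ipsilateral and contralateral cortex was taken at the same times. Healthy rats were not operated on, and only their ipsilateral cortex was used here. Each of the 11 groups had 4 one-colour arrays, and each array held the RNA of 3 rats pooled. Core, periinfarct and contralateral arrays of the same pool number were taken to come from the same rats.

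All levels are log2 of the normalized signal of a gene's brightest probe, and all differences are log2 differences with the standard error (SE) of the fit. A gene was called changed where limma, fitted to all 44 arrays and 30514 probes, gave a Benjamini-Hochberg adjusted p under 0.05 and the difference was at least 2-fold. Between 62.5% and 77.7% of spots were well above background on each array, and no spot was saturated. Of the 45 genes, 42 were well above background on all 44 arrays. The exceptions were Efnb1 (38 arrays), Sema3c (42) and Robo4 (43).

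In bulk tissue, fewer cells of a type and less RNA per cell cannot be told apart. The summed signal of 13 neuron markers lay between 111890 and 117363 in healthy cortex, between 63899 and 81144 in core and between 44676 and 61884 in periinfarct cortex at 24 h. At 3 d it lay between 33679 and 77961 in core and between 48599 and 87815 in periinfarct cortex. Of these 13 markers, 0 were called lower in core and 3 in periinfarct cortex at 24 h, and 6 and 2 at 3 d. Markers of some other cells were called lower in core at 24 h, as were 5.22% of all probes, and those of others higher, as were 6.04%. Of 4 oligodendrocyte precursor markers 2 were lower, whereas 5 of 12 microglia and macrophage and 3 of 5 neutrophil markers were higher. Of 9 fibroblast and meningeal markers 7 were called lower (median -1.71), with sums between 1432 and 5669 against 9226 to 11338 in healthy cortex, and of 9 astrocyte markers 3 were lower and 1 higher, with sums between 13955 and 18167 against 22586 to 28513. The part of these cells in the decreases was not tested. The sum of 12 microglia and macrophage markers lay between 13669 and 16704 in healthy cortex and between 96673 and 164413 in core at 3 d. Pool 11 stood apart from the other pools at 3 d. Its periinfarct array had a neuron sum of 87815 and a microglia and macrophage sum of 23168, against 97216 to 117747 in the other pools, and lay among sham and contralateral arrays on the first principal component of all probes. Its core array had the highest neuron sum and the lowest microglia and macrophage sum of the group. The counts of called genes at 3 d are therefore also given without both of these arrays, a setting chosen after the data were seen.

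Of the axon guidance genes called against healthy cortex, most were downregulated, and 25 of the 45 were called in no ischemic group. In core at 24 h, 6 of the 45 genes were called lower and 0 higher, and in periinfarct cortex at 24 h 12 were lower and 0 higher. At 3 d, 14 genes were lower and 3 higher in core, whereas in periinfarct cortex 1 gene was lower and 0 were higher. Without both pool 11 arrays, 15 genes were lower and 3 higher in core at 3 d, the 17 called with all arrays among them, and 2 were lower and 0 higher in periinfarct cortex. All arrays of these calls were separated from the 4 healthy arrays. These 4 comparisons share the healthy arrays.

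The share of all probes called gives the background for these counts. In core at 24 h, 6.04% of all probes were called higher and 5.22% lower, against 13.3% of the axon guidance genes lower. In periinfarct cortex at 24 h, 6.76% of probes were higher and 7.51% lower, against 26.7% of the genes lower. In core at 3 d, 12.2% of probes were higher and 12% lower, against 6.67% and 31.1% of the genes. In periinfarct cortex at 3 d, 5.33% of probes were higher and 0.993% lower, against 0% and 2.22% of the genes. In both areas at 24 h and in core at 3 d, the lower share of the genes was above that of all probes and the higher share below it. The lower share in periinfarct cortex at 3 d is that of 1 gene and is near the background.

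Genes of the same table are a closer background, because they passed the same filter. Over 9722 of them, each by its brightest probe, 8.02% were higher and 6.55% lower in core at 24 h, and 9.5% and 9.92% in periinfarct cortex at 24 h. At 3 d, 17.1% were higher and 13.4% lower in core, while periinfarct cortex had 9.13% higher and 1.25% lower. Apart from periinfarct cortex at 3 d, where the lower share of 2.22% is again that of 1 gene, the axon guidance genes had a larger share of lower calls and a smaller share of higher calls than these genes.

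The shift was also seen when no 2-fold minimum was set, in counts that include the genes called above. With adjusted p alone, 18 genes were lower and 2 higher in core at 24 h, against 16% and 12.4% of all probes. In periinfarct cortex at 24 h, 22 were lower and 1 higher, against 20.9% and 13.5%. In core at 3 d, 26 were lower and 3 higher, against 26.8% and 18.7%, and in periinfarct cortex at 3 d 7 were lower and 1 higher, against 7.53% and 9.17%. As shares, the lower calls were 40%, 48.9%, 57.8% and 15.6% of the 45 genes. The median difference of the 45 genes was -0.43 in core and -0.56 in periinfarct cortex at 24 h and -0.62 and -0.32 at 3 d, whereas the medians of all probes were -0.08, -0.06, -0.21 and -0.10.

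**Figure D1:**
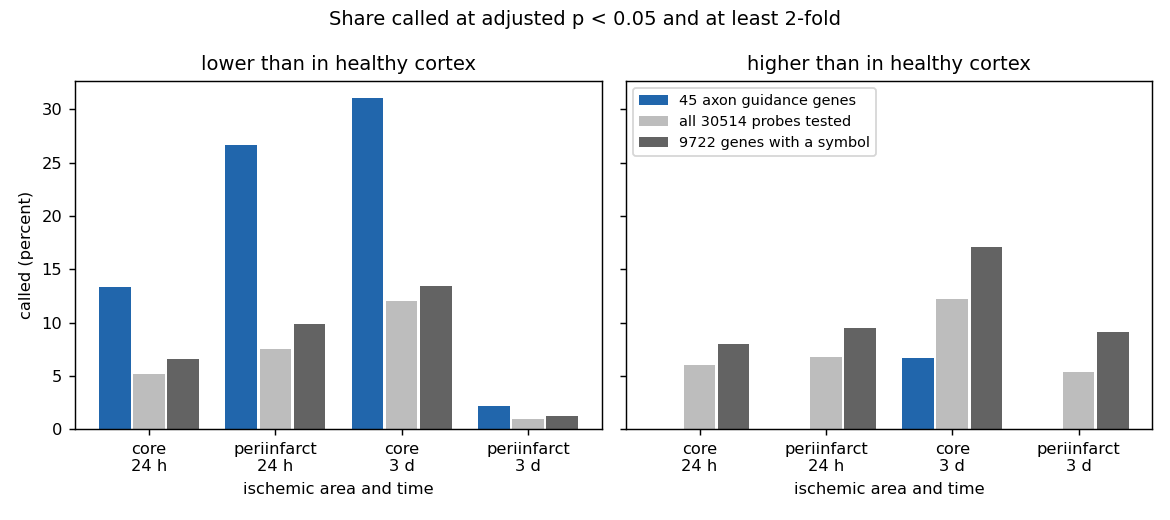
Bars give the percent of the 45 axon guidance genes, of all 30514 probes and of 9722 genes with a symbol called higher or lower than healthy cortex (limma adjusted p under 0.05 and at least 2-fold) in the 4 ischemic groups, on an axis from 0. The genes reach 31.1% lower in core at 3 d against 12% of probes, and 26.7% lower in periinfarct cortex at 24 h against 7.51%.

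Ligands and receptors were both represented. Of the 20 ligands, 1 was lower in core and 5 in periinfarct cortex at 24 h, 5 in core at 3 d and 0 in periinfarct cortex at 3 d. Of the 25 receptors, 5, 7, 9 and 1 were lower in the same order. All 3 genes called higher, in core at 3 d, were receptors. The medians in core at 3 d were -0.55 for ligands and -0.76 for receptors.

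**Figure D2:**
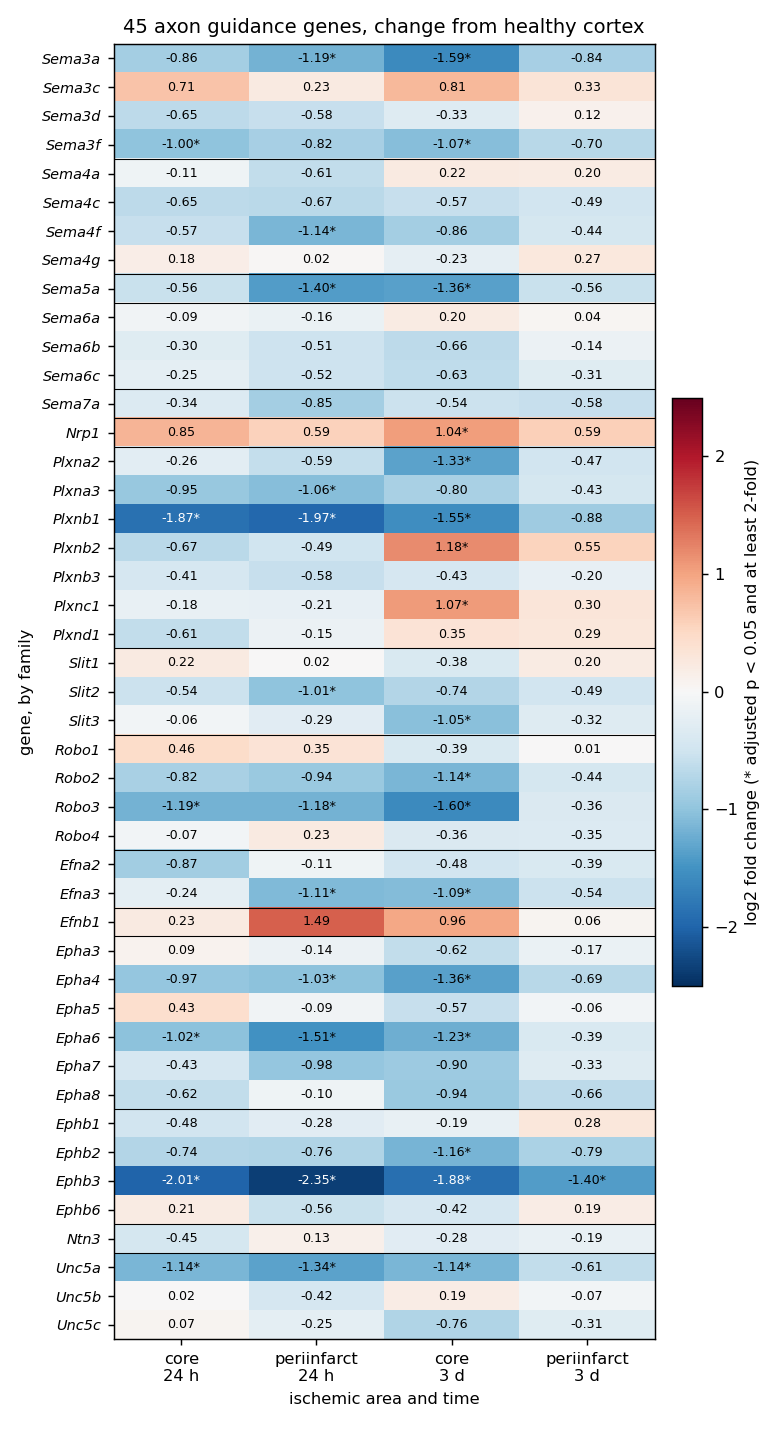
Rows are the 45 genes, grouped by family, and columns are the 4 ischemic groups. Colour and printed value give the log2 difference from healthy cortex (means of 4 arrays each), and a star marks a call. Most cells are blue (lower), the darkest rows are Ephb3 and Plxnb1, and the starred red cells are Nrp1, Plxnb2 and Plxnc1 in core at 3 d.

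The largest decreases in both areas at 24 h were those of Ephb3 and Plxnb1, and 3 receptors were called higher in core at 3 d. The sequence before the start site is shown for the former pair and, of these 3 receptors, for Nrp1 and Plxnb2. Promoters of genes with opposite changes can thus be compared, while that of Plxnc1, the remaining receptor called higher, is not shown. The sequences are RefSeq, build GRCr8, the 250 bases before each gene's start, 5′ to 3′ on the gene's strand, with each GC box (GGGCGG on either strand) in capitals.
Ephb3, chr11:93363776-93364025: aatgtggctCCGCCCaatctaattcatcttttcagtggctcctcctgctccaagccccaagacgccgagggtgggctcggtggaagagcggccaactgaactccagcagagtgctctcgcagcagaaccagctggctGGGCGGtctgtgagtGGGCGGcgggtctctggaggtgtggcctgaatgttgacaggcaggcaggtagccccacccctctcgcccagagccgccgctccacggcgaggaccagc
Plxnb1, chr8:118622911-118623160: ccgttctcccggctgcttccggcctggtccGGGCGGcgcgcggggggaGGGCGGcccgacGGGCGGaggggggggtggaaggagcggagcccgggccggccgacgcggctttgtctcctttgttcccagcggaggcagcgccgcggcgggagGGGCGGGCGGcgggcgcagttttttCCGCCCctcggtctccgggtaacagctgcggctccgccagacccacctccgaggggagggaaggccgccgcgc
Nrp1, chr19:73256307-73256556: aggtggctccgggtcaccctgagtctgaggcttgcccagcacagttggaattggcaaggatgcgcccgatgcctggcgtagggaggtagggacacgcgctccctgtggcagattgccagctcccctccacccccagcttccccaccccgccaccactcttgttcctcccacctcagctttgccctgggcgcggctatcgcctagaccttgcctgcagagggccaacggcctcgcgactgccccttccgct
Plxnb2, chr7:122137949-122138198: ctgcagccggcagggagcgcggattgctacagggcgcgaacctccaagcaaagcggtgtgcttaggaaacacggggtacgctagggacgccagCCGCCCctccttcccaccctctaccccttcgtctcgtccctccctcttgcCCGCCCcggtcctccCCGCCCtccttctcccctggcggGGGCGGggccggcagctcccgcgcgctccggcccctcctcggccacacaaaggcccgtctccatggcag

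Ephb3 lies on the minus strand of chromosome 11 and had 3 GC boxes in this window. Plxnb1, on the plus strand of chromosome 8, had 6, and Plxnb2, on the minus strand of chromosome 7, had 4. Nrp1, on the plus strand of chromosome 19, had 0. Of the genes shown, GC boxes thus stood before those that fell and before Plxnb2, but not before Nrp1. Plxnc1, which also rose, is not among them. Over windows of the same length, 37 of the 45 genes had a promoter in the table, and 20 of these (54.1%) held a GC box, against 30.5% of all 33469 promoters. Each of the 37 genes was counted once, by its first listed promoter. The 33469 are all listed promoters of any gene, so the shares are over unlike sets. An E-box (CANNTG) was in 23 of them (62.2% against 65.5%), the hypoxia response core ACGTG on either strand in 5 (13.5% against 16.6%), and the cyclic AMP response element TGACGTCA and the AP-1 site TGANTCA in 0 (against 1.59% and 6.34%). A match in these letters is a description of the sequence, and the 37 promoters were not tested against the others.

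Ephb3, a receptor of B-type ephrins, was the gene with the largest decrease in every ischemic group and the only one called in all 4. The healthy arrays read 7.74, 8.02, 8.18 and 8.13. Core read 5.73, 6.34, 5.84 and 6.11 at 24 h and 5.59, 5.67, 7.16 and 6.12 at 3 d. Periinfarct cortex read 5.96, 5.98, 5.54 and 5.19 at 24 h and 6.59, 6.58, 6.99 and 6.30 at 3 d. Every ischemic array was below the lowest healthy array, and the highest core array at 3 d was that of pool 11. The difference from healthy was -2.01 (SE 0.29, 4.03-fold, limma adjusted p = 3.68e-06) in core and -2.35 (5.10-fold, adjusted p = 2.26e-07) in periinfarct cortex at 24 h. At 3 d it was -1.88 (3.68-fold, adjusted p = 2.45e-06) in core and -1.40 (2.64-fold, adjusted p = 0.00095) in periinfarct cortex. Ipsilateral sham cortex at 24 h read 6.60, 7.48, 7.17 and 7.69, also below healthy cortex (-0.78, adjusted p = 0.121). Against time-matched sham, core differed by -1.23 at 24 h and -1.43 at 3 d and periinfarct cortex by -1.57 and -0.95, so that in the latter at 3 d Ephb3 was then under 2-fold (limma adjusted p = 0.0288). Fitted on the compared groups alone, the periinfarct call at 3 d was lost (limma adjusted p = 0.0647). Without both pool 11 arrays, the differences at 3 d were -2.22 in core and -1.53 in periinfarct cortex.

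The other Eph receptors called lower were Epha4, Epha6 and Ephb2. Epha4, which binds ephrins of both types and restricts axon growth, read 12.21, 12.45, 12.31 and 12.18 in healthy cortex. It read 11.47, 11.53, 11.24 and 10.80 in periinfarct cortex at 24 h and 10.46, 10.94, 11.73 and 10.61 in core at 3 d. None of these arrays reached the healthy ones. Epha4 fell by 1.03 in periinfarct cortex at 24 h (SE 0.20, limma adjusted p = 0.000107) and by 1.36 in core at 3 d (adjusted p = 7.23e-07). In core at 24 h the difference was -0.97 (adjusted p = 0.000343), short of the 2-fold minimum. The periinfarct decrease was also under 2-fold without healthy pool 18 or without periinfarct pool 4 (-0.88).

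Epha6 read 5.58, 5.34, 5.41 and 5.29 in healthy cortex, 3.82, 4.33, 4.63 and 4.77 in core at 24 h and 3.94, 4.28, 3.61 and 3.74 in periinfarct cortex at 24 h. In core at 3 d it read 3.23, 4.09, 4.82 and 4.56. These arrays did not overlap the healthy ones. Epha6 fell by 1.02 in core at 24 h (SE 0.28, limma adjusted p = 0.00656), by 1.51 in periinfarct cortex at 24 h (adjusted p = 8.72e-05) and by 1.23 in core at 3 d (adjusted p = 0.000481). Its second probe gave -0.15, -0.35 and -1.27, so the 24 h decreases rest on 1 of 2 probes. In core, the decrease at 24 h was under 2-fold without healthy pool 17 (-0.96) or core pool 1 (-0.83) or 2 (-0.999), and that at 3 d without core pool 9 (-0.91).

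Ephb2, another receptor of B-type ephrins, read 6.06, 5.80, 5.95 and 6.19 in healthy cortex and 4.26, 4.74, 5.72 and 4.66 in core at 3 d. Pool 11 was again the closest to healthy cortex. Ephb2 fell by 1.16 there (SE 0.25, limma adjusted p = 0.000186). The other 6 Eph receptors were not called against healthy cortex, and Epha7 came closest, at -0.98 (adjusted p = 0.00132) in periinfarct cortex at 24 h and -0.90 (adjusted p = 0.00169) in core at 3 d.

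Of the 3 ephrins, the ligands of these receptors, Efna3 was called lower. It read 6.12, 6.03, 5.99 and 6.10 in healthy cortex, 4.69, 5.26, 4.51 and 5.33 in periinfarct cortex at 24 h and 4.68, 4.84, 5.78 and 4.56 in core at 3 d. The groups did not overlap, but the ischemic arrays were spread. Efna3 fell by 1.11 (SE 0.34, limma adjusted p = 0.0103) and by 1.09 (adjusted p = 0.00821). The first decrease was under 2-fold without periinfarct pool 3 (-0.96), and the second without core pool 9 (-0.997) or pool 12 (-0.96). With the slide as a block neither was called (-0.80, adjusted p = 0.0891, and -0.74, adjusted p = 0.0724).

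Efnb1 was too variable for its change to be read. Healthy arrays read 2.96, 5.69, 5.50 and 3.05, and core arrays at 3 d read 6.84, 6.98, 2.53 and 4.69. Both groups hold low and high arrays, and the difference was 0.96 (SE 0.85, limma adjusted p = 0.377).

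Plexins, the receptors of semaphorins, moved in both directions. Plxnb1, which binds the class 4 semaphorin Sema4d, read 7.53, 7.66, 8.23 and 8.39 in healthy cortex. It read 6.01, 6.07, 6.05 and 6.21 in core and 6.19, 5.91, 6.25 and 5.60 in periinfarct cortex at 24 h. At 3 d it read 6.12, 5.92, 7.12 and 6.43 in core and 7.27, 7.17, 7.17 and 6.66 in periinfarct cortex. Plxnb1 was uniformly low in both areas at 24 h, and at 3 d pool 11 was the highest of the core arrays. It fell by 1.87 in core (SE 0.24, 3.65-fold, limma adjusted p = 2.88e-07) and by 1.97 in periinfarct cortex (3.91-fold, adjusted p = 1.05e-07) at 24 h, and by 1.55 in core at 3 d (2.94-fold, adjusted p = 1.54e-06). In periinfarct cortex at 3 d the difference was -0.88 (adjusted p = 0.00864). Ipsilateral sham arrays at 24 h read 6.78, 7.14, 7.17 and 7.11, all below the healthy ones (-0.90, adjusted p = 0.0843). Against these sham arrays, Plxnb1 was lower by less, at -0.97 in core (adjusted p = 0.00309) and -1.06 in periinfarct cortex (adjusted p = 0.000957).

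The class A plexins Plxna2 and Plxna3, coreceptors for class 3 semaphorins, were also called lower. Plxna2 read 6.80, 6.65, 6.77 and 6.78 in healthy cortex and 5.27, 5.43, 6.34 and 4.64 in core at 3 d. All core arrays were below healthy cortex, pool 11 by the least, and Plxna2 fell by 1.33 (SE 0.24, limma adjusted p = 2.11e-05). Its second probe was lower at both times in core (-1.03 at 24 h and -1.70 at 3 d). Plxna3 read 6.24, 6.10, 6.09 and 6.71 in healthy cortex and 5.97, 5.41, 5.06 and 4.47 in periinfarct cortex at 24 h, and fell by 1.06 (SE 0.24, adjusted p = 0.000656). In core it was short of the 2-fold minimum at both times (-0.95 and -0.80).

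Plxnb2, Plxnc1 and Nrp1 were the genes upregulated in core at 3 d. Plxnb2, a plexin of class 4 semaphorins, read 7.18, 7.32, 7.75 and 7.83 in healthy cortex, 6.74, 6.90, 6.71 and 7.05 in core at 24 h and 9.17, 8.69, 8.54 and 8.40 in core at 3 d. Every core array at 3 d exceeded every healthy array, and every core array at 24 h was below them. The difference was -0.67 at 24 h (limma adjusted p = 0.0239, under 2-fold) and 1.18 at 3 d (SE 0.22, 2.27-fold, adjusted p = 4.44e-05). Periinfarct arrays at 3 d read 8.50, 8.74, 7.07 and 7.96, of which pool 11 was the lowest and lay below healthy cortex, and the difference was not called (0.55, adjusted p = 0.0909).

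Plxnc1, the receptor of the membrane-anchored Sema7a, read 8.80, 8.59, 8.51 and 8.68 in healthy cortex. In core it read 8.46, 8.29, 8.55 and 8.56 at 24 h and 10.28, 10.06, 9.22 and 9.29 at 3 d. The increase was thus seen at 3 d alone (1.07, SE 0.18, 2.10-fold, limma adjusted p = 7.78e-06), where pools 9 and 10 were higher than pools 11 and 12. Without core pool 9 or core pool 10 it was under 2-fold (0.88 and 0.95). The second probe gave 0.68 at 3 d (adjusted p = 0.012), and Sema7a itself was lower by 0.54 (SE 0.18, adjusted p = 0.0134, under 2-fold).

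Nrp1, the receptor of Sema3a and a coreceptor of vascular endothelial growth factor, read 5.22, 4.89, 5.06 and 5.10 in healthy cortex. It read 5.88, 5.62, 6.24 and 5.93 in core at 24 h, 6.43, 6.45, 5.60 and 5.97 in core at 3 d, 5.33, 5.86, 5.66 and 5.77 in periinfarct cortex at 24 h and 5.83, 5.78, 5.56 and 5.47 in periinfarct cortex at 3 d. All 16 ischemic arrays were above all healthy arrays. The difference was 1.04 in core at 3 d (SE 0.16, 2.06-fold, limma adjusted p = 1.8e-06) and was under 2-fold in core at 24 h (0.85, adjusted p = 0.000137) and in periinfarct cortex at 24 h (0.59, adjusted p = 0.00412) and 3 d (0.59, adjusted p = 0.00987). It was close to the 2-fold minimum and lay under it without healthy pool 18 (0.98) or core pool 9 (0.94) or 10 (0.93), and with the slide as a block (0.95). Without both pool 11 arrays, Nrp1, Plxnb2 and Plxnc1 were higher by 1.21, 1.23 and 1.23 in core at 3 d. With another background correction (normexp, offset of 50), 0 genes were called higher in core at 3 d. With normexp and no fold minimum, 4 were. By the mean of its probes, Plxnc1 was not called there.

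The 3 genes called higher moved beside markers of other cells. Over the same contrast, all 12 measured microglia and macrophage markers, 2 of 8 endothelial markers and 5 of 9 fibroblast and meningeal markers were called higher in core at 3 d. Higher too were 4 of 5 neutrophil, 2 of 3 T cell and 3 of 6 pericyte and smooth muscle markers. Of all probes, 12.2% were higher and 12% lower. Of 9 astrocyte markers 1 was higher and 1 lower, 0 of 7 oligodendrocyte and 0 of 4 precursor markers were called, and 6 of 13 neuron markers were called lower. The endothelial sum lay between 6814 and 10129 in healthy cortex and between 10100 and 22690 in core at 3 d, and the fibroblast and meningeal sum between 9226 and 11338 and between 16446 and 47244. The part of these cells in the changes of the axon guidance genes was not tested.

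**Figure D3:**
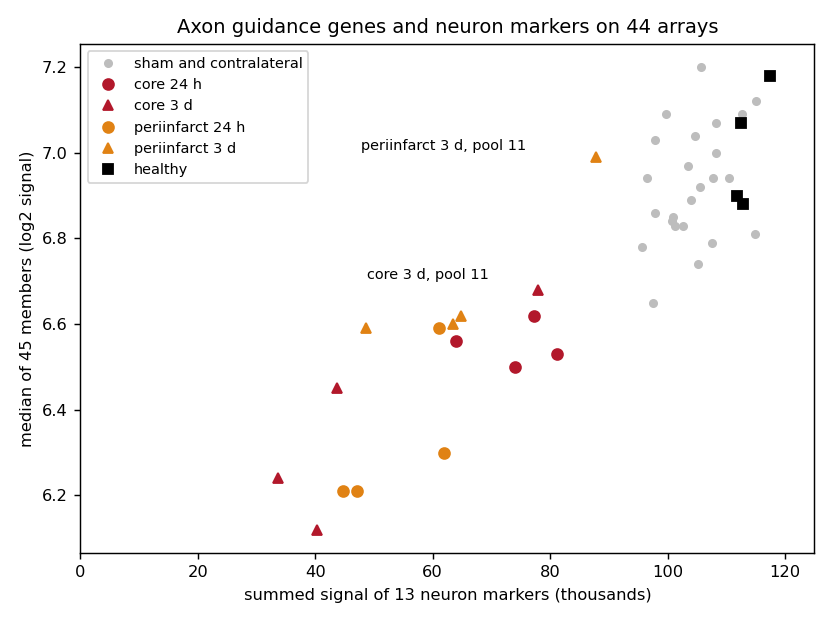
Each point is 1 of the 44 arrays. The horizontal axis gives the summed normalized signal of 13 neuron markers and the vertical axis the median log2 level of the 45 axon guidance genes. Healthy, sham and contralateral arrays lie at the upper right, core and periinfarct arrays lower and to the left, and the periinfarct array of pool 11 at 3 d beside the controls.

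Semaphorins, the largest ligand family here, had 4 members called lower and 0 higher. Sema3a, a secreted repellent of axons, read 6.32, 6.04, 5.83 and 6.24 in healthy cortex, 5.19, 5.74, 4.47 and 4.27 in periinfarct cortex at 24 h and 4.20, 4.66, 5.31 and 3.89 in core at 3 d. All of these arrays were below healthy cortex, and the closest core array was that of pool 11. Sema3a fell by 1.19 in periinfarct cortex at 24 h (SE 0.29, limma adjusted p = 0.00165) and by 1.59 in core at 3 d (3.01-fold, adjusted p = 2.69e-05), so that the ligand and its receptor Nrp1 were called in opposite directions in core at 3 d. Without periinfarct pool 4 the first decrease was -0.97.

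Sema3f, a second secreted repellent, read 7.30, 7.38, 7.28 and 7.70 in healthy cortex, 6.28, 6.79, 6.26 and 6.33 in core at 24 h and 6.00, 6.17, 6.47 and 6.74 in core at 3 d. It was low in every core array. It fell by 1.00 at 24 h (SE 0.18, limma adjusted p = 8.96e-05) and by 1.07 at 3 d (adjusted p = 8.92e-06). Both lay at the 2-fold minimum. Without healthy pool 20 they were -0.91 and -0.98, without core pools 1, 3 or 4 the first was -0.96, -0.95 and -0.97, and without core pool 9 the second was -0.96.

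Sema5a, a membrane-bound semaphorin with thrombospondin repeats, read 7.29, 7.07, 7.24 and 7.26 in healthy cortex and 5.86, 6.24, 5.41 and 5.75 in periinfarct cortex at 24 h. In core at 3 d it read 6.00, 6.09, 6.96 and 4.37, with pool 12 far below and pool 11 close to healthy cortex. It fell by 1.40 (SE 0.33, limma adjusted p = 0.00108) and by 1.36 (adjusted p = 0.000865), the latter by 0.87 without core pool 12. Of its 4 other probes, 1 was called lower in each of these comparisons (-1.05 and -1.06) and 3 were lower by less than 2-fold. Sema4f, a membrane-bound semaphorin, read 8.82, 8.94, 8.97 and 9.07 in healthy cortex and 8.28, 8.22, 7.58 and 7.16 in periinfarct cortex at 24 h, where pools 3 and 4 were the lowest. It fell by 1.14 (SE 0.19, limma adjusted p = 2.68e-05), and by 0.93 without pool 4. In core at 3 d the difference was -0.86 (adjusted p = 0.000414). The leading gene of class 6, Sema6b, was at -0.66 in core at 3 d (SE 0.23, adjusted p = 0.0152), under 2-fold.

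Among the Robo receptors, Robo3 and Robo2 were called lower. Robo3 read 12.01, 12.25, 11.80 and 12.31 in healthy cortex. Core read 10.78, 11.15, 10.16 and 11.52 at 24 h and 10.13, 10.24, 10.98 and 10.63 at 3 d. Periinfarct cortex read 10.70, 11.03, 11.04 and 10.87 at 24 h and 11.85, 11.52, 12.14 and 11.42 at 3 d. At 24 h in both areas, and at 3 d in core, all arrays were below the healthy range. Robo3 fell by 1.19 in core (SE 0.27, limma adjusted p = 0.000954) and by 1.18 in periinfarct cortex (adjusted p = 0.000676) at 24 h, and by 1.60 in core at 3 d (3.02-fold, adjusted p = 6.26e-06). A second probe gave -1.28, -1.28 and -1.81 in the same comparisons. In periinfarct cortex at 3 d the difference was -0.36. Against time-matched sham, it was -0.97 in core and -0.96 in periinfarct cortex at 24 h, both short of 2-fold. Without core pool 3, the difference of core from healthy cortex at 24 h was -0.94.

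Robo2 read 10.07, 10.32, 10.13 and 9.97 in healthy cortex and 8.75, 8.91, 9.71 and 8.56 in core at 3 d. All core arrays were lower, pool 11 by the least, and Robo2 fell by 1.14 (SE 0.21, limma adjusted p = 2.52e-05), and by just under 2-fold without core pool 12 (-0.999). At 24 h Robo2 was also below every healthy array in both areas. The difference there was -0.82 in core and -0.94 in periinfarct cortex, both under 2-fold and so not called. Among the Slits, Slit2 read 11.43, 11.17, 11.12 and 11.19 in healthy cortex and 10.76, 10.68, 10.03 and 9.42 in periinfarct cortex at 24 h. Its decrease of -1.01 (SE 0.20, limma adjusted p = 0.000184) rested on pool 4 for its size, since it was -0.74 without that array, and it was -0.94 without either periinfarct pool 3 or healthy pool 17. Slit3 read 11.12, 10.97, 10.78 and 11.13 in healthy cortex and 9.54, 9.69, 10.44 and 10.14 in core at 3 d. It was low in each core array at 3 d and fell by 1.05 (SE 0.17, limma adjusted p = 5.26e-06), and by less than 2-fold without pool 9 (-0.91) or pool 10 (-0.96). In core at 24 h Slit3 differed by -0.06.

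Unc5a, a receptor for the repulsive action of netrins, read 6.07, 5.95, 6.18 and 6.37 in healthy cortex, 4.87, 5.36, 4.47 and 5.32 in core at 24 h and 5.06, 4.96, 4.52 and 4.67 in periinfarct cortex at 24 h. In core at 3 d it read 4.31, 5.01, 5.84 and 4.86. Every array was below healthy cortex, pool 11 at 3 d by the least. Unc5a fell by 1.14 (SE 0.25, limma adjusted p = 0.00064), by 1.34 (adjusted p = 6.41e-05) and by 1.14 (adjusted p = 0.000214). It was lower in sham cortex too. Ipsilateral sham arrays at 24 h read 5.15, 5.74, 5.48 and 5.66 (-0.63, limma adjusted p = 0.128), and against them the decreases at 24 h were -0.50 in core (adjusted p = 0.158) and -0.71 in periinfarct cortex (adjusted p = 0.0305), neither called. Against healthy cortex, Unc5a was under 2-fold at 24 h without core pool 3 (-0.96) and at 3 d without core pool 9 (-0.91). Unc5b and Unc5c were not called against healthy cortex, and neither was Ntn3, the netrin listed (-0.28 in core at 3 d, SE 0.23, limma adjusted p = 0.329).

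**Figure D4:**
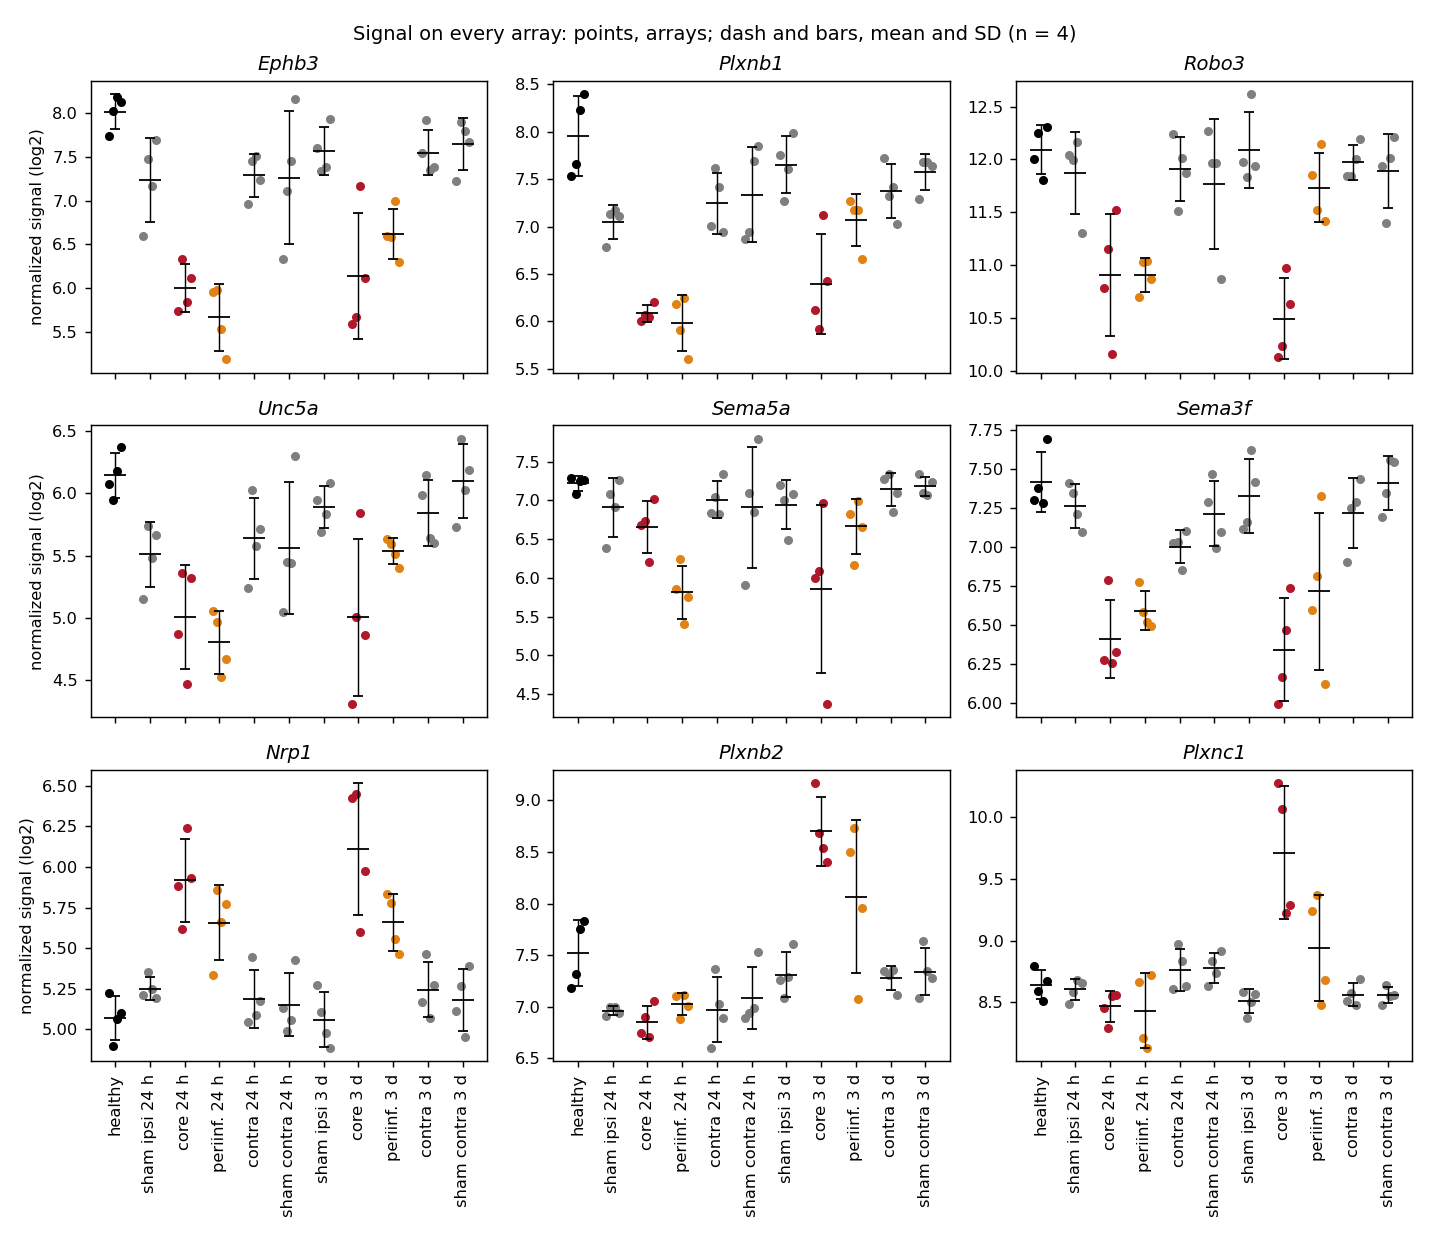
Points give the log2 level of 9 axon guidance genes on each array, by group, with the group mean and SD (n = 4 arrays). Ephb3, Plxnb1, Robo3, Unc5a, Sema5a and Sema3f are low in core and periinfarct groups, and Nrp1, Plxnb2 and Plxnc1 are high in core at 3 d.

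The core was compared directly with the periinfarct cortex at each time. At 24 h, 0 of the 45 genes were called, against 0.0492% of all probes higher and 0.0852% lower in core, and limma gave 12 genes and 3880 of all probes (12.7%) an unadjusted p under 0.05. At 3 d, 0 genes were higher and 1 was lower in core, against 3.11% and 0.921% of all probes. That gene was Robo3, lower in core by 1.24 on the log2 scale (-1.24, SE 0.27, 2.36-fold, limma adjusted p = 0.0044), with no overlap between core (10.13 to 10.98) and periinfarct (11.42 to 12.14) arrays. Without periinfarct pool 11, Robo3 was no longer called (-1.10, adjusted p = 0.0505), whereas without both pool 11 arrays it was (-1.26, adjusted p = 0.00286) and 2 genes were called in all. With the pool as a fixed replicate block, which uses only these 8 arrays, its adjusted p was 0.212, and without the block on the same arrays it was 0.421.

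The side of the difference was not the same at both times. At 24 h, 34 of the 45 genes were higher in core than in periinfarct cortex and 11 lower (median 0.20, against 0.03 over all probes). At 3 d, 10 were higher and 35 lower (median -0.41, against -0.08). The 13 neuron markers changed side too, with a median core minus periinfarct difference of 0.45 at 24 h and -0.54 at 3 d, and their part in the change of the axon guidance genes was not tested. The change of the core minus periinfarct difference from 24 h to 3 d was called for 7 genes, all negative, against 1.88% of all probes positive and 3.13% negative. These were Sema5a (0.85 at 24 h and -0.81 at 3 d), Ephb6 (0.77 and -0.62), Epha6 (0.49 and -0.84), Robo3 (-0.01 and -1.24), Plxna2 (0.33 and -0.86), Epha7 (0.55 and -0.58) and Epha5 (0.52 and -0.51). They are 4 Eph receptors, a plexin, a Robo receptor and a semaphorin.

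Ephb6, an Eph receptor without kinase activity, shows this pattern array by array. In core it read 10.14, 10.71, 10.56 and 9.93 at 24 h and 9.26, 9.73, 10.39 and 9.45 at 3 d. In periinfarct cortex it read 9.78, 9.99, 9.64 and 8.88 at 24 h and 10.34, 10.19, 10.28 and 10.50 at 3 d. Most core arrays were above those of periinfarct cortex at 24 h, and most were below them at 3 d, with a change of -1.39 (SE 0.30, limma adjusted p = 0.0137). The count of such genes depended on single arrays. It was 17 without core pool 11 at 3 d, 0 without core pool 9 at 3 d and 10 without both pool 11 arrays, and 0 when only these 4 groups were fitted.

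**Figure D5:**
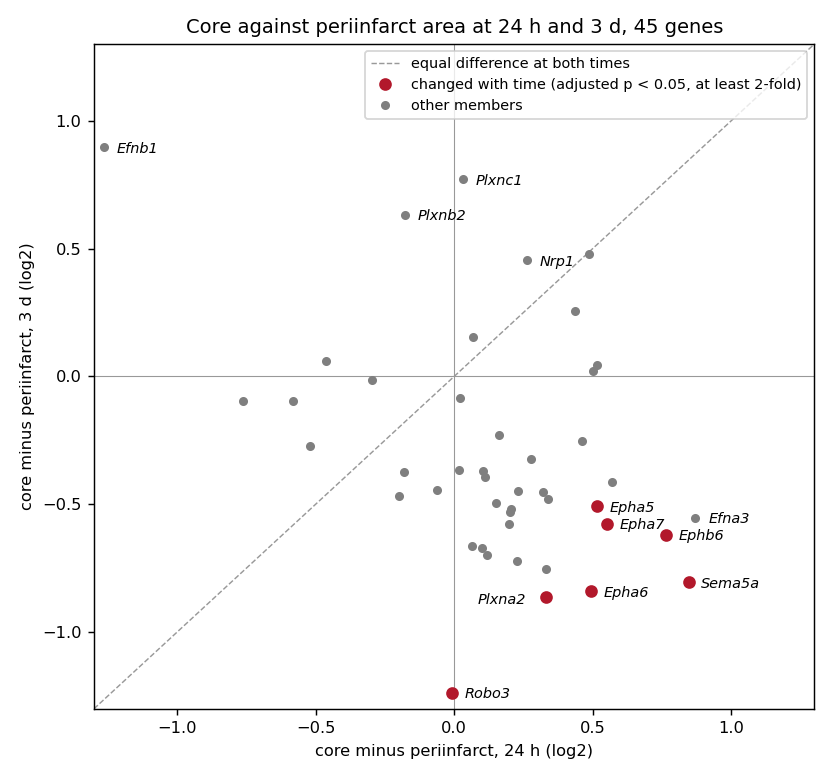
Each point is 1 of the 45 genes, with the core minus periinfarct log2 difference at 24 h on the horizontal axis and at 3 d on the vertical axis. Most points lie to the right of 0 and below 0, and Robo3 lies lowest at -1.24.

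The same arrays were compared between times within each area. In core, 2 genes were higher and 2 lower at 3 d than at 24 h, against 8.71% and 5.5% of all probes. Plxnb2 rose by 1.85 (3.6-fold, limma adjusted p = 8.59e-08) and Plxnc1 by 1.25 (2.37-fold, adjusted p = 1.62e-06), with no overlap between times. Plxna2 fell by 1.08 (adjusted p = 0.000628), and by 0.82 without core pool 12 at 3 d or 0.94 without core pool 4 at 24 h. Epha5, a receptor of A-type ephrins, read 10.43, 10.23, 10.54 and 10.35 in core at 24 h and 8.97, 9.42, 9.86 and 9.29 at 3 d. All arrays at 3 d were lower, and Epha5 fell by 1.00 (SE 0.16, limma adjusted p = 1.25e-05), at the 2-fold minimum, which it missed without core pools 1 or 3 at 24 h (-0.99 and -0.95) or 9 or 12 at 3 d (-0.86 and -0.97). Without both pool 11 arrays 9 genes were called, 3 higher and 6 lower.

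In periinfarct cortex, 3 genes were higher and 0 lower at 3 d than at 24 h, against 3.4% and 2.34% of all probes. Epha6 rose by 1.12 (limma adjusted p = 0.00539), Plxnb1 by 1.08 (adjusted p = 0.00134) and Plxnb2 by 1.04 (adjusted p = 0.00126). By the mean of its probes Epha6 was not called (0.53, limma adjusted p = 0.152), and neither was Plxnb2 when only these groups were fitted (adjusted p = 0.114). Epha6 and Plxnb1 had been called lower at 24 h and were not called against healthy cortex at 3 d. Of the 45 genes, 35 were higher at 3 d (median 0.35, against 0.03 over all probes). Plxnb1 was under 2-fold without periinfarct pool 4 at 24 h (0.95), and Plxnb2 without periinfarct pool 2 at 24 h (0.99) or pools 9 or 10 at 3 d (0.90 and 0.82). Its level in periinfarct cortex at 3 d was higher in pools 9 and 10 and lower in pool 11. Without both pool 11 arrays, 3 genes were called.

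Contralateral cortex and the operation itself gave no calls. Contralateral cortex was compared with that of sham-operated rats, and 0 of the 45 genes were called at 24 h (0% of all probes higher and 0.00328% lower) and 0 at 3 d (0% and 0%). By unadjusted p, limma gave 0 and 1 gene under 0.05. Ipsilateral sham cortex was compared with healthy cortex, and 0 genes were called at 24 h and 0 at 3 d, as were 0% of all probes in each direction. At 24 h, however, 9 genes and 6774 of all probes had an unadjusted p under 0.05, Plxnb1, Ephb3, Unc5a and Plxnb2 (-0.56, adjusted p = 0.142) among them, and at 3 d 0 genes did.

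The calls against healthy cortex were set beside those with other controls. With ipsilateral sham cortex of the same time as control, 2 genes were called in core and 7 in periinfarct cortex at 24 h, all lower. Of these, 1 and 6 were also called against healthy cortex. At 3 d, 13 genes were called in core, 3 higher and 10 lower, and 0 in periinfarct cortex. The contralateral cortex of the same pool number then served as control, with the pool as a replicate block. At 24 h, 4 genes were lower in core, and 1 was higher and 9 lower in periinfarct cortex. At 3 d, 2 were higher and 11 lower in core, and 0 were called in periinfarct cortex. Of the calls in core and periinfarct cortex at 24 h and in core at 3 d, 3, 7 and 12 were also called against healthy cortex. The share of all probes called with either control is not given here, so these counts stand without a background. The direction of the named genes was the same with each control, but the sizes were not. Against sham, Epha6 in core at 24 h was at -0.54 (limma adjusted p = 0.196) and Efna3 in periinfarct cortex at 24 h at -0.58 (adjusted p = 0.232), and neither passed the test. Against own contralateral cortex, Ephb3 was at -0.93 in periinfarct cortex at 3 d (limma adjusted p = 0.163), Sema3f was at -0.59 in core at 24 h and -0.88 at 3 d, and Nrp1 was at 0.87 in core at 3 d (adjusted p = 0.00714), each under 2-fold. Unc5a was at -0.64 in core and -0.84 in periinfarct cortex at 24 h and at -0.84 in core at 3 d. Epha4 and Efna3 in periinfarct cortex at 24 h were at -0.95 and -0.73. Slit2 and Robo3 there, and Epha6 in core at 24 h, lay just under 2-fold (-0.986, -0.997 and -0.998), as did Plxnb1 in core at 3 d (adjusted p = 0.0161).

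The mean level of Ephb3 was 8.02 in healthy cortex and lay between 7.23 and 7.64 in the 6 sham and contralateral groups, and that of Plxnb1 was 7.95 and between 7.05 and 7.65. Healthy cortex was thus the highest group for both genes.

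The other 25 genes were not called against healthy cortex in any ischemic group. They were Sema3c, Sema3d, Sema4a, Sema4c, Sema4g, Sema6a, Sema6b, Sema6c, Sema7a, Plxnb3, Plxnd1, Slit1, Robo1, Robo4, Efna2, Efnb1, Epha3, Epha5, Epha7, Epha8, Ephb1, Ephb6, Ntn3, Unc5b and Unc5c. Several were lower by less than 2-fold, such as Sema7a in periinfarct cortex at 24 h (-0.85, limma adjusted p = 0.000338), Unc5c in core at 3 d (-0.76, adjusted p = 0.00133) and Sema4c in core and periinfarct cortex at 24 h (-0.65, adjusted p = 0.0196, and -0.67, adjusted p = 0.0127). Sema3c, a secreted semaphorin, was higher by 0.71 in core at 24 h (adjusted p = 0.122) and by 0.81 at 3 d (adjusted p = 0.0556), neither of which passed the test. Ephb1 and Plxnd1 had a second probe called lower in core at 24 h (-1.01 and -1.49), and that of Plxnd1 also in periinfarct cortex at 24 h (-1.22), whereas their brightest probes were not.

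Proteins that act downstream of these receptors or beside them were counted as a separate list of 55 measured genes. In core 5 were higher and 5 lower at 24 h, against 6.04% and 5.22% of all probes, and 9 and 12 at 3 d, against 12.2% and 12%. In periinfarct cortex 5 were higher and 13 lower at 24 h, against 6.76% and 7.51%, and 6 and 1 at 3 d, against 5.33% and 0.993%.

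In semaphorin signalling, 14 of 20 genes were measured. In core, 3 were higher and 0 lower at 24 h and 4 and 2 at 3 d, and in periinfarct cortex 3 and 2 at 24 h and 3 and 0 at 3 d. Fes, a tyrosine kinase that acts below plexins and is abundant in myeloid cells, rose by 1.45 in core at 24 h and by 3.65 at 3 d, and Mical1, an oxidase that disassembles actin below plexins, by 1.04 and 2.76. Nrcam, an adhesion protein of the neuropilin complex, fell by 1.18 in periinfarct cortex at 24 h and by 1.28 in core at 3 d.

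Of netrin and Slit signalling, 14 of 18 genes were measured and 0 were higher in any of the 4 comparisons. Lower were 2 in periinfarct cortex at 24 h and 2 in core at 3 d, against 7.51% and 12% of all probes. With 14 genes, a count of 2 is too small to set apart from these shares. Dscam, a netrin receptor, was at -1.15 and -1.18. Of ephrin signalling, 9 of 12 were measured. In core 1 was higher and 1 lower at 24 h and 2 and 3 at 3 d, and in periinfarct cortex 1 and 3 at 24 h and 1 and 0 at 3 d. For the semaphorin and ephrin signalling counts, the background is the share of all probes given above with the whole list of downstream proteins. Ngef, a binding partner of Epha4, fell by 1.18 in core and 1.38 in periinfarct cortex at 24 h and by 1.45 in core at 3 d.

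All 5 measured myelin inhibitors and their receptors were called in some comparison. In periinfarct cortex at 24 h and in core at 3 d, 4 of the 5 were lower, against 7.51% and 12% of all probes, and in core at 24 h 3 were, against 5.22%. Omg, a myelin protein that inhibits axon growth, fell by 1.52 and 1.75 in core and periinfarct cortex at 24 h and by 1.40 in core at 3 d. Ngfr, the p75 coreceptor, was higher by 1.68 in core at 3 d. The chemokine Cxcl12 and its receptor Cxcr4, which also guide axons, were called in opposite directions and at different times. Cxcl12 fell by 1.84 in core and 1.47 in periinfarct cortex at 24 h, and Cxcr4 rose by 3.28 and 1.67 at 3 d.

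Different probes of 1 gene mostly agreed in sign. For 14 genes with 18 further probes, 22 of 144 pairs of probe and comparison differed in call from the brightest probe, 0 were called the opposite way and 16 had the opposite sign. Few slides held arrays of both groups compared. On the 1 slide that held periinfarct cortex at 24 h and healthy cortex, the named genes called there differed by -2.99 to -0.65, and on that with core at 3 d and healthy cortex by -1.03 to 1.36. Since the genes were called on these same arrays, their sign there is no separate check. Arrays of the same group are different pools of rats, so the p-values rest on the spread between pools. Core, periinfarct and contralateral arrays of the same number were taken to share pools, but the main fit treated them as independent. For comparisons between areas, and for the change with time, its p-values therefore do not measure the paired spread. A fit with the pool as a random block gave a correlation of 0.22 within pools.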

How the data were processed

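RNA of 11 groups of rat cortex was measured on 44 one-colour Agilent arrays, 4 per group. The authors scanned the arrays with Agilent Feature Extraction 10.7.3.1, and the deposited intensity values are background-subtracted and spatially corrected. A second deposited table holds log2 values for 20395 probes, which the authors thresholded at 1, quantile normalized and filtered. It gave the gene symbols. The labels name a miRNA labelling kit and the methods a one-colour mRNA labelling, a difference that was not settled. The members and lists were chosen with earlier results of these data known.

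Here the intensities were thresholded at 1, quantile normalized and taken as log2, and 30514 of 41012 probes were kept by filters modelled on the methods (20th percentile and signal above background in 75% of a group's arrays, coefficient of variation of 2.5%). The scanner's flag for a signal above background stood in for the methods' present or marginal flag, and more probes were kept than the 20395 of the authors' table. The result correlated with the deposited table at 0.99999 or more. Groups were compared with limma 3.58.1 in R 4.3.3, all 44 arrays in one fit, with Benjamini-Hochberg adjustment per comparison over all probes kept. The labels number the rats, and this number was taken as that of the pool. Arrays of core, periinfarct and contralateral cortex with the same number were taken to come from the same rats. The main fit had no term for the pool, which entered only as a block in some alternatives. The deviations of same-numbered arrays from their group means correlated at -0.35 to 0.50, with the highest values between the sides of sham-operated rats. Members named in detail were the largest calls in each comparison and the leading gene of each family. The script was tested on simulated data. Alternatives were other scaling, background correction, filters, probes, controls, blocks, arrays left out and no fold minimum. Healthy rats' contralateral cortex was not used here. The number of arrays limits the precision. One group within the list of downstream proteins is counted in its total and is not reported here.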

Additional observations from a re-analysis of the deposited data

Results flagged for a closer look

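Of 115 sets of 4 arrays tested for a value far from the others, 3 were marked, and chance marks about 1 in 20. Plxnb1 in periinfarct cortex at 3 d read 6.66 in pool 12, against 7.17 to 7.27 in the other pools. Sema3f in core at 24 h read 6.79 in pool 2, against 6.26 to 6.33, and Sema4f in core at 24 h read 8.55 in pool 2, against 8.31 to 8.33.

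For 7 genes the core minus periinfarct difference changed between 24 h and 3 d by a test of that change (limma, adjusted over all probes). The change was -1.03 for Epha5, -1.33 for Epha6, -1.13 for Epha7, -1.39 for Ephb6, -1.19 for Plxna2, -1.23 for Robo3 and -1.65 for Sema5a. Without core pool 9 at 3 d 0 of the 45 genes were called in this test, and without core pool 11 at 3 d 17 were.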

How the results depend on the processing

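Counts of called genes are given in the order core 24 h, periinfarct 24 h, core 3 d and periinfarct 3 d against healthy cortex (6, 12, 17 and 1), then core against periinfarct at 3 d (1), core and periinfarct at 3 d against 24 h (4 and 3) and the change with time (7). Without the fold minimum the counts were 20, 23, 29 and 8, then 12, 12 and 10. With normexp, whose offset of 50 compresses low signals, they were 3, 4, 3 and 0, then 2 for core and 0 for periinfarct cortex at 3 d against 24 h and 3 for the change, and with normexp and no fold minimum (added after seeing the data) 19, 23, 27 and 9, then 10, 9 and 9. Against sham they were 2, 7 and 0 (core 24 h, periinfarct at both times), and without the fold minimum (added) 14, 30 and 7 (core at both times, periinfarct 3 d). The slide as a block gave 2 for periinfarct 3 d and 7 for core at 3 d against 24 h. Fitting the compared groups alone gave 0 for periinfarct 3 d, for core against periinfarct at 3 d and for the change. With own contralateral cortex and a replicate block periinfarct 3 d gave 0, and with a fixed replicate block core against periinfarct at 3 d gave 0. A random replicate block gave 6, 12, 17 and 1, then 1, 4, 3 and 9. Scaling to the 75th percentile gave 0 for periinfarct cortex at 3 d against 24 h, and moved the median of all probes by up to 0.21. Without both pool 11 arrays of 3 d (added), periinfarct 3 d gave 2, core against periinfarct 3 d 2 and core at 3 d against 24 h 9.

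With each array left out, the counts ranged from 3 (without core pool 3) to 7, from 7 (without periinfarct pool 4) to 14, from 9 (without core pool 9) to 18 and from 1 to 2 (without healthy pool 17 or periinfarct pool 11), then from 0 (without periinfarct pool 11) to 5 (without core pool 11), from 3 to 9 (without core pool 11), from 2 to 4 and from 0 to 17. Core against periinfarct at 24 h and the contralateral and sham comparisons stayed at 0 to 0. For the change, the count was 0 without core 3 d pool 9, 1 without periinfarct 24 h pool 3 or 4 or periinfarct 3 d pool 11, 2, 17 and 4 without core 3 d pools 10, 11 and 12, 4 and 3 without core 24 h pools 2 and 4 and 11 without periinfarct 24 h pool 2. Of 42 called values of named genes, leaving out each array of their own comparison in turn kept the call in 293 cases and lost it in 43. The other alternatives kept it in 445 cases and lost it in 86, and 0 reversed.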

Other observations

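Members of the same families that the normalized table does not list were looked up after the data were seen, through the RefSeq accession of their probe. Of 67 RefSeq genes of these families, 17 further ones had a probe and 15 of these passed the filter. Efna5, an A-type ephrin, fell at 24 h in core (-1.20, SE 0.41, limma adjusted p = 0.0259) and in periinfarct cortex (-1.95, adjusted p = 0.00031) and at 3 d in core (-2.15, adjusted p = 4.23e-05), where it was also lower than in periinfarct cortex (-1.19, adjusted p = 0.0436). Plxna4, a coreceptor of class 3 semaphorins, fell by 1.78 in core at 3 d (SE 0.36, adjusted p = 0.000108) and was lower there than in periinfarct cortex (-1.50, adjusted p = 0.00802) and than in core at 24 h (-2.20, adjusted p = 1.24e-05). Ntn4, a netrin of vessel walls, fell by 1.83 in core and 1.62 in periinfarct cortex at 24 h (SE 0.44, adjusted p = 0.00177 and 0.00376) and rose by 1.52 in core from 24 h to 3 d (adjusted p = 0.00679). Efna4, another A-type ephrin, rose by 1.44 in core at 3 d (SE 0.40, adjusted p = 0.0035). Sema6d fell by 1.04 in periinfarct cortex at 24 h by 1 of its 2 probes (adjusted p = 0.0075, and -0.28 by the other), and the netrin receptor Dcc was higher in periinfarct cortex at 3 d than at 24 h (1.94, SE 0.69, adjusted p = 0.0498). The other 9 genes kept were not called in any of these comparisons.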
